A study of Mus musculus with 16 samples.

Results

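The p53 target genes examined here are 35 genes, Trp53 itself and 34 genes that the literature ties to p53, given as a list of symbols and found in the count files by Ensembl gene ID. All 35 were present among the 55359 gene IDs, and all 35 were among the 17531 genes with enough reads to be tested. They were read in whole dorsal skin from 8-week-old males, which the labels place in telogen (hair follicles at rest). WT skin and skin of mice without the TNF receptors TNFR1 and TNFR2 (KO, genes Tnfrsf1a and Tnfrsf1b) was taken without UVB or after 3xUVB, with 4 libraries in each of the 4 groups. The sources used here give neither the targeting alleles and strain nor the UVB dose and the time from exposure to collection. Nothing in the labels ties each library to its own animal, and p-values therefore reflect only variation among these libraries, part of which may be technical. Whole skin mixes epidermis, dermis, follicles and blood cells, and in such bulk RNA fewer cells of a type and less RNA per cell cannot be told apart. As a check of the genotype, Tnfrsf1a ranged over 133 to 148 CPM (read counts scaled to library depth with TMM factors) in WT control, 140.05 to 162 in WT UVB, 82.2 to 93.9 in KO control and 89.3 to 105 in KO UVB, and Tnfrsf1b over 44.4 to 69.6, 33.6 to 51.7, 16.4 to 24.9 and 15.6 to 27.9. Both were lower in KO in each condition, with no overlap of the KO and WT libraries, and still had reads in every KO library.

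p53 is a transcription factor that is held at a low level by the ubiquitin ligase MDM2 and accumulates after DNA damage, largely through slower degradation of the protein. Its targets stop the cell cycle, promote apoptosis, support DNA repair and nucleotide supply, and include Mdm2, which closes a negative feedback loop. In skin, UVB forms pyrimidine dimers in keratinocyte DNA, and p53 in keratinocytes is known for its part in the sunburn response and in tanning.

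p53 binds DNA as a tetramer on a pair of 10-base elements, each with a CNNG core between purines and pyrimidines. Promoter windows from RefSeq (GRCm38.p6), each 250 bases before to 50 after a gene's start, existed for 30 of the 35 genes in 39 windows. Perp, Pmaip1, Rrm2b, Trp53inp1 and Zmat3 were not matched. The p53 consensus element, searched by name and equal to its own reverse complement so that both strands were covered, was found without mismatch in 13 of 30 genes (43.3%), against 9.56% of all 27018 genes with a window. With 1 mismatch allowed outside the C and G of the core, 73.3% of the 30 genes and 54.2% of all genes held a match. Pairs with up to 1 such mismatch in each element lay in 3 of the 30 genes (10%), against 3.09% of all genes. These were Cdkn1a, Ccng1 and Gtse1. The stretch before 1 of the 2 RefSeq starts of Cdkn1a, the cell cycle inhibitor p21, is shown because it held the only pair of elements without mismatch among these genes, which 0.074% of all genes had. It covers chr17:29090729-29090978 on the plus strand, and capitals mark the 2 elements, separated by a spacer of 12 bases.
Cdkn1a: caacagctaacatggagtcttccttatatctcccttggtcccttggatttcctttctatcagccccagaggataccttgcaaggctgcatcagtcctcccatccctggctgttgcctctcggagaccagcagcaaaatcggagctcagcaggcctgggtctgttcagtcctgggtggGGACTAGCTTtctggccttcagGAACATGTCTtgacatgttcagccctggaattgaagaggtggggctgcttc

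The second of these elements, 51 bases before the start, was followed directly by another with 1 mismatch, and together they read as follows.
Cdkn1a pair: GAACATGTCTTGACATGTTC

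For the other 12 genes with a match, the element without mismatch is shown in capitals with 10 flanking bases. The elements are read in the direction of transcription. They lay in the windows chr11:69580109-69580408 (plus, Trp53), chr10:117710709-117711008 (minus, Mdm2), chr7:78895677-78895976 and chr7:78895808-78896107 (plus, both windows of Aen), chr9:36797285-36797584 (minus, Ei24), chr15:85859696-85859995 (plus, Gtse1), chr8:22185770-22186069 (minus, Ckap2), chr7:45466849-45467148 (minus, Bax), chr11:40755237-40755536 (minus, Ccng1), chr6:67037358-67037657 (minus, Gadd45a), chr1:155099587-155099886 (minus, Ier5), chr13:96519138-96519437 (minus, Polk) and chr10:41887189-41887488 (plus, Sesn1).
Trp53: acccacggaaGGACTTGCCCttacttgtta
Mdm2: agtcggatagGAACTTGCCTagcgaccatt
Aen: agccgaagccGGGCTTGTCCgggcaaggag
Ei24: cgtgcggcccGGGCATGCCCagtgtgggcg
Gtse1: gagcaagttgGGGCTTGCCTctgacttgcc
Ckap2: ctgtgtctgaAGACATGTCCtgacttgtca
Bax: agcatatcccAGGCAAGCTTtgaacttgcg
Ccng1: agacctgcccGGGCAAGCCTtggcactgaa
Gadd45a: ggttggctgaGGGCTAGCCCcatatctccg
Ier5: ccccctttaaGAGCTTGCTCcgcgggacta
Polk: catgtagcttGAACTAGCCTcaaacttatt
Sesn1: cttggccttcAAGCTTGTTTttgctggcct

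A match describes letters in a short window and is not a measured binding site, and p53 elements also lie in introns and farther upstream. Gtse1, Polk and Sesn1 each had 2 windows at different starts, and only 1 of the 2 held an element. Of the 13 genes with an element in a window, 8 rose and 1 (Sesn1) fell after UVB in WT, and 9 rose in KO. Of the 17 with a window and no element, 7 rose in each genotype. Over all genes tested, 10.2% rose in WT and 17.2% in KO. All genes were not split by element, and a link of the element to the UVB change was not tested.

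After UVB, 18 of the 35 genes rose in WT skin and 1, Sesn1, fell, while 16 did not pass the test (edgeR quasi-likelihood test, Benjamini-Hochberg adjusted p under 0.05 over all genes tested). That is 51.4% of the list called higher, against 10.2% of all genes tested, and 8.60% of all genes were called lower. In KO skin 19 rose and 1, Rrm2b, fell (54.3% of the list higher, against 17.2% of all genes higher and 15.1% lower). The median log2 fold change of the list was 0.32 in WT and 0.43 in KO, where the medians of all genes tested were -0.03 and -0.02. Control and UVB libraries lay wholly apart for 19 of the 35 genes in each genotype, against 28.2% of all genes in WT and 25.1% in KO. 16 genes were called higher in both genotypes, which is 88.9% of the WT calls and 84.2% of the KO calls. The 12 genes called in neither were Trp53, Ccng1, Gadd45a, Bbc3, Fas, Apaf1, Eda2r, Trp53inp1, Ddit4, Phlda3, Epha2 and Sulf2.

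**Figure D1:**
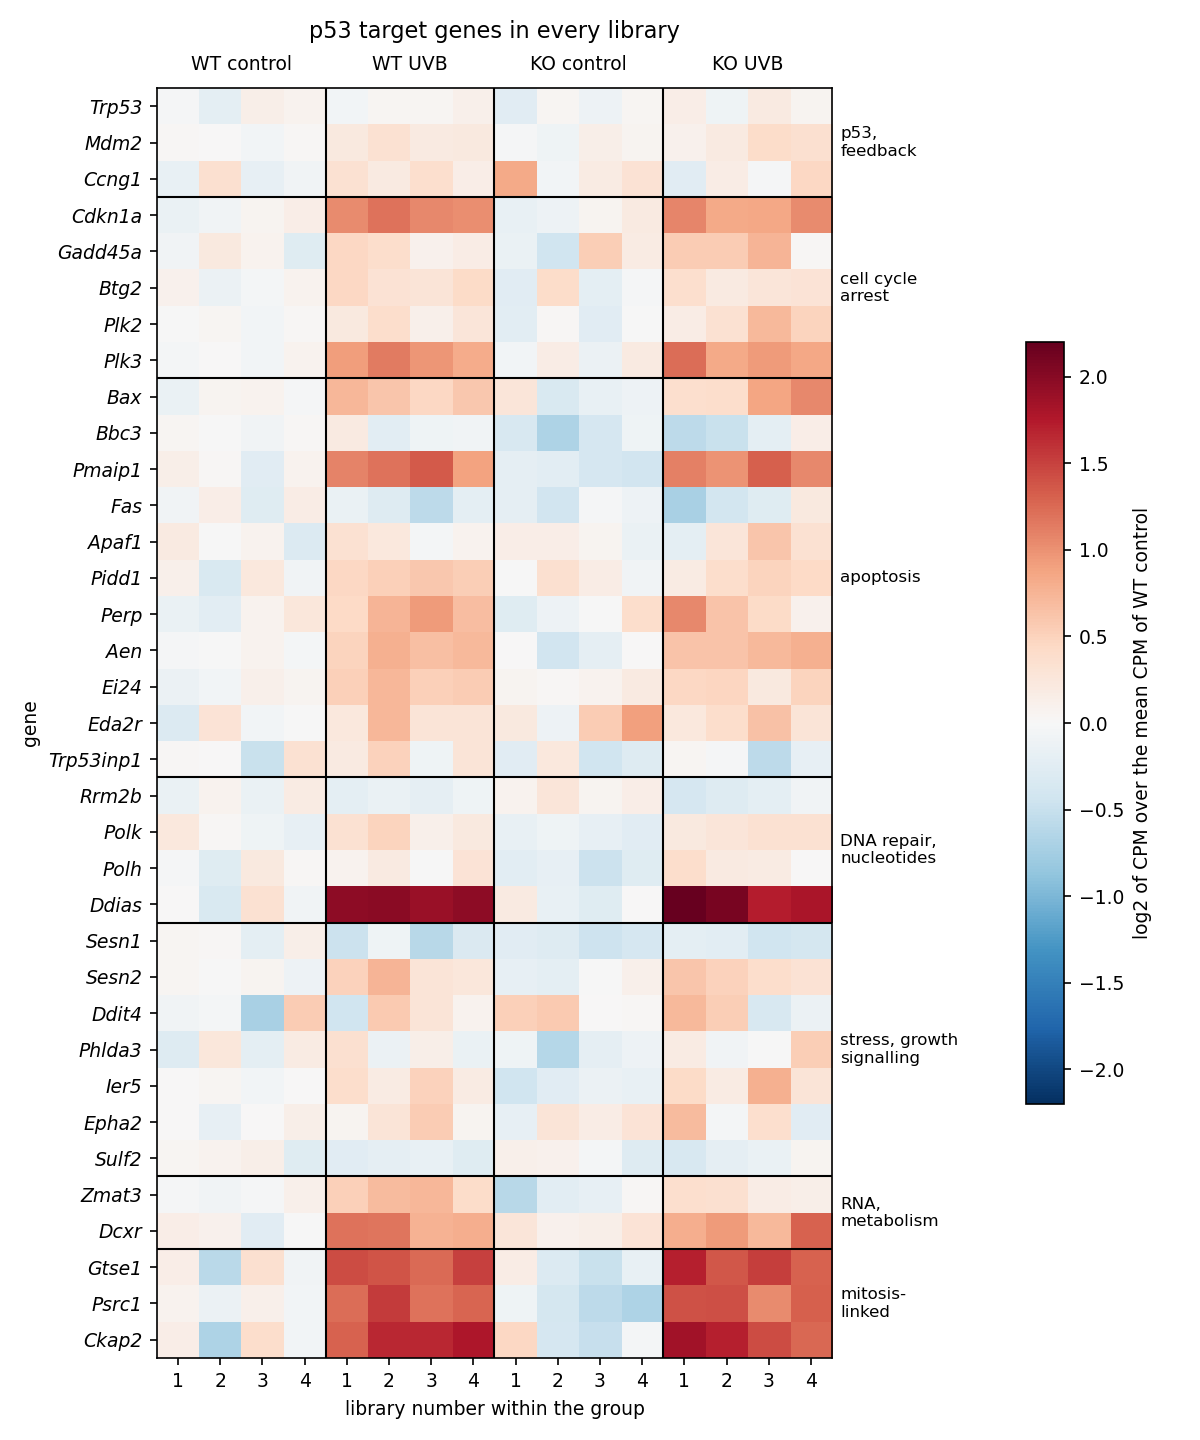
Level of each of the 35 p53 target genes (rows, ordered by role) in each of the 16 libraries (columns, by group), as the log2 of its CPM over the mean CPM of the 4 WT control libraries. The UVB columns of both genotypes are high for Ddias, Ckap2, Gtse1, Psrc1, Pmaip1 and Cdkn1a, and near the control columns for Trp53.

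Trp53 mRNA did not change past the threshold in any comparison. It stood at 50.6, 44.7, 57.0 and 54.9 CPM in WT control libraries 1 to 4, at 49.5, 53.6, 53.5 and 56.1 in WT UVB, at 43.8, 53.1, 48.2 and 53.5 in KO control and at 57.4, 48.4, 59.6 and 53.8 in KO UVB. The ranges of all 4 groups overlapped. The log2 change after UVB was 0.04 in WT (95% interval -0.16 to 0.23, adjusted p = 0.813) and 0.14 in KO (-0.05 to 0.34, adjusted p = 0.247).

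Mdm2 encodes the ligase that degrades p53. It was called higher in both genotypes by a small amount that depended on the scaling and on the libraries kept. Its levels were 54.0, 53.7, 50.7 and 54.2 CPM in WT control skin, 61.9, 66.9, 60.8 and 61.4 in WT UVB, 51.9, 49.8, 58.3 and 55.6 in KO control and 57.0, 61.1, 70.6 and 68.1 in KO UVB. The WT groups were apart, and in KO the lowest UVB library lay within the control range. The log2 fold change was 0.24 ± 0.07 (SE) in WT (adjusted p = 0.036) and 0.25 ± 0.07 in KO (adjusted p = 0.0176). Scaled by library totals in place of TMM it was 0.15 in WT (adjusted p = 0.205) and 0.18 in KO (adjusted p = 0.104), and limma voom gave 0.17 in KO (adjusted p = 0.0571), none of which passed. Ccng1, a cyclin that recruits a phosphatase to MDM2, had 216 ± 39.7 CPM (SD, n = 4) in WT control, 260 ± 18.2 in WT UVB, 276 ± 76.1 in KO control and 233 ± 49.0 in KO UVB, and did not pass the test in either genotype (adjusted p = 0.322 and 0.326).

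Of the 5 genes with a role in cell cycle arrest, 3 rose in WT (Cdkn1a, Plk3, Btg2) and 3 in KO (Cdkn1a, Plk3, Plk2). Among all genes tested, 10.2% rose in WT and 17.2% in KO. Cdkn1a, the inhibitor of cyclin-dependent kinases that carries much of the p53-dependent arrest, about doubled. It measured 138, 144, 159.8 and 168 CPM in WT control skin, 313, 348, 317 and 311 in WT UVB, 136, 141, 159.8 and 175 in KO control and 323, 272, 277 and 313 in KO UVB. Every UVB library was above every control library. The fold change was 2.11 in WT (log2 1.08 ± 0.10, adjusted p = 6.9e-06) and 1.93 in KO (log2 0.95 ± 0.10, adjusted p = 1.66e-05). Plk3, a stress-responsive polo-like kinase, measured 33.3, 34.5, 32.9 and 35.9 CPM in WT without UVB and 64.6, 75.2, 67.2 and 60.2 with it. In KO it measured 32.8, 38.3, 31.3 and 39.1 without UVB and 80.2, 60.8, 65.4 and 61.9 with it, again with no overlap. Its log2 fold change was 0.97 ± 0.10 in WT (adjusted p = 2.07e-05) and 0.92 ± 0.10 in KO (adjusted p = 2.72e-05). Btg2, an antiproliferative cofactor of mRNA deadenylation, went from 65.2 ± 4.84 to 84.4 ± 4.57 CPM in WT (log2 0.37, adjusted p = 0.0362), and in KO its change of 0.28 had an adjusted p of 0.0755. Plk2, a related kinase, changed by 0.25 in WT (adjusted p = 0.112) and rose by 0.55 ± 0.11 in KO (adjusted p = 0.00128). Gadd45a, a damage-inducible stress protein, changed by 0.29 and 0.42 (adjusted p = 0.321 and 0.104).

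**Figure D2:**
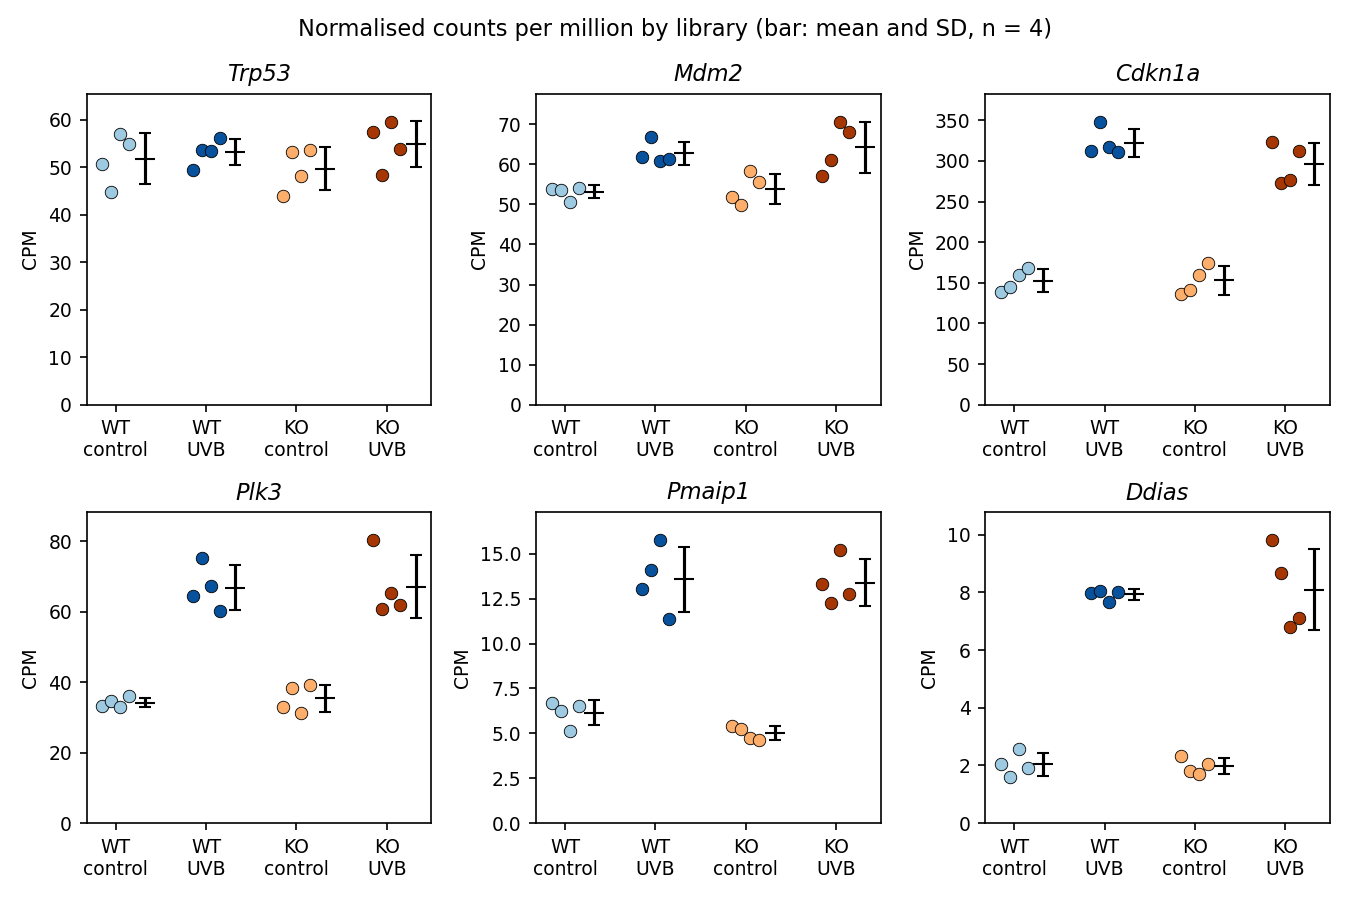
CPM of 6 p53 target genes in each of the 16 libraries (points, linear axes from 0), by group, with the group mean and SD (n = 4). Trp53 overlaps in all groups, while the UVB points of Cdkn1a lie at 272 to 348 CPM and those of both control groups at 136 to 175.

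Among 11 apoptosis genes, 6 rose in WT (Bax, Pmaip1, Pidd1, Perp, Aen, Ei24) and 5 in KO, where Pidd1 did not pass. The share of all genes that rose was 10.2% in WT and 17.2% in KO. Pmaip1 encodes NOXA, a BH3-only protein that neutralises MCL1. Its levels were 6.70, 6.26, 5.16 and 6.50 CPM in WT control skin, 13.1, 14.1, 15.8 and 11.4 in WT UVB, 5.39, 5.26, 4.74 and 4.60 in KO control and 13.3, 12.3, 15.2 and 12.8 in KO UVB. The groups were apart in both genotypes, with log2 fold changes of 1.14 ± 0.12 in WT (adjusted p = 2.24e-05) and 1.42 ± 0.12 in KO (adjusted p = 4.48e-06). Bbc3 encodes PUMA, the other BH3-only target on the list, and did not pass, with 9.51 ± 0.353 and 9.21 ± 1.17 CPM in WT control and UVB, 7.41 ± 1.20 and 7.95 ± 1.86 in KO (adjusted p = 0.866 and 0.641). Bax, the pore-forming effector of mitochondrial apoptosis, rose from 18.4 ± 1.30 to 28.0 ± 2.11 CPM in WT (adjusted p = 0.0116) and from 17.6 ± 3.15 to 30.0 ± 7.24 in KO (adjusted p = 0.0015).

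Aen, an apoptosis-enhancing nuclease, measured 22.2, 22.3, 23.7 and 21.9 CPM in WT control skin, 31.7, 38.7, 35.7 and 36.9 in WT UVB, 22.6, 16.8, 19.6 and 22.5 in KO control and 34.8, 34.97, 37.1 and 38.6 in KO UVB. It rose in every UVB library beyond the control range, by 0.67 ± 0.09 on the log2 scale in WT (adjusted p = 0.000178) and 0.84 ± 0.09 in KO (adjusted p = 2.97e-05). Ei24, an endoplasmic reticulum protein also known as PIG8, measured 93.3, 98.2, 111 and 106 CPM in WT control skin, 147, 169.6, 146 and 149.7 in WT UVB, 106, 104, 108 and 117 in KO control and 139, 141, 119 and 144 in KO UVB. Its log2 fold change was 0.58 ± 0.08 in WT (adjusted p = 0.000178) and 0.32 ± 0.08 in KO (adjusted p = 0.0072). The 4 KO UVB libraries were all below the 4 WT UVB libraries, and UVB libraries of the genotypes lay apart for 8.16% of all genes. The KO to WT difference of Ei24 in UVB skin did not pass (log2 -0.17, adjusted p = 0.306).

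Perp encodes a desmosomal protein of stratified epithelia that is also a p53 and p63 target. It was at 1033, 977, 1216 and 1372 CPM in WT control skin, 1553, 1931, 2203 and 1851 in WT UVB, 959.9, 1069.9, 1137 and 1496 in KO control and 2404, 1769, 1538 and 1229 in KO UVB. The WT groups were apart and the KO groups overlapped, with log2 fold changes of 0.71 ± 0.20 (adjusted p = 0.0203) and 0.57 ± 0.20 (adjusted p = 0.0355). The summed level of 6 basal keratinocyte markers in KO UVB libraries 1 to 4 was 15827, 12220, 9835 and 6670 CPM and that of 6 suprabasal markers 50516, 29456, 21284 and 15619.9, both in the same order as Perp. The order also matched in WT UVB and KO control, but not in WT control, where library 4 was highest for Perp and library 3 for both marker sums. None of these 12 markers was at 0 in any group, and their part in the Perp result was not tested. Pidd1, a scaffold of the caspase-2 activating complex, rose by 0.53 ± 0.14 in WT (adjusted p = 0.0162) and changed by 0.26 in KO (adjusted p = 0.158). The death receptor gene Fas changed by -0.30 and -0.07, Apaf1, which forms the apoptosome, by 0.16 and 0.22, Eda2r, an ectodysplasin receptor, by 0.40 and -0.04, and Trp53inp1, a stress-induced cofactor of p53, by 0.24 and 0.00 in WT and KO, none past the threshold (adjusted p from 0.155 to 0.989).

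In the group for DNA repair and nucleotide supply, 2 of 4 genes rose in WT (Polk, Ddias) and 3 in KO (Polk, Polh, Ddias), where Rrm2b fell. For all genes, 10.2% rose in WT, and 17.2% rose and 15.1% fell in KO. The group as listed includes Ddias, an anti-apoptotic gene induced by DNA damage. Ddias aside, Polk was the only gene of the group called in WT. Ddias had the largest fold change of the 35 in both genotypes. It measured 2.06, 1.61, 2.58 and 1.93 CPM in WT control skin, 7.98, 8.06, 7.66 and 8.00 in WT UVB, 2.33, 1.82, 1.70 and 2.05 in KO control and 9.80, 8.67, 6.79 and 7.10 in KO UVB. The change was 3.85-fold in WT (log2 1.94 ± 0.16, adjusted p = 5.09e-06) and 4.08-fold in KO (log2 2.03 ± 0.16, adjusted p = 3.05e-06). The translesion polymerases Polk and Polh rose in KO by 0.46 ± 0.10 and 0.49 ± 0.11 (adjusted p = 0.00279 and 0.00401). In WT Polk changed by 0.29 (adjusted p = 0.0472) and Polh by 0.14 (adjusted p = 0.398). Rrm2b, the p53-inducible subunit of ribonucleotide reductase, fell in KO from 23.9 ± 1.63 to 18.5 ± 1.60 CPM (log2 -0.37 ± 0.09, adjusted p = 0.00587), and its change of -0.16 in WT did not pass (adjusted p = 0.23). The S-phase subunit Rrm2, a gene of the proliferation list below, rose by 1.02 and 1.24 in WT and KO.

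Of the 7 genes of stress and growth signalling, 1 rose and 1 fell in WT and 2 rose in KO. These counts stand against 10.2% of all genes higher and 8.60% lower in WT, and 17.2% higher in KO. Sesn2, a leucine sensor that restrains mTORC1, rose in both genotypes, by 0.47 ± 0.11 in WT (adjusted p = 0.00815) and 0.53 ± 0.11 in KO (adjusted p = 0.00215). Its paralog Sesn1 was 100.3 ± 9.72 CPM in WT skin without UVB and 78.2 ± 12.0 with it (log2 -0.36 ± 0.10, adjusted p = 0.0254), and 79.3 ± 5.08 and 80.5 ± 6.41 in KO control and UVB (0.02 ± 0.10, adjusted p = 0.897). Ier5, an immediate early gene, rose in KO by 0.67 ± 0.12 (adjusted p = 0.000646) and changed by 0.32 in WT (adjusted p = 0.0657). Phlda3, an inhibitor of AKT, changed by 0.06 and 0.43 (adjusted p = 0.819 and 0.0592). The mTORC1 inhibitor Ddit4 had the widest spread within groups of the 35 genes (CV 30%, against 6.096% for Mdm2) and changed by 0.17 ± 0.28 and -0.05 ± 0.28. The receptor kinase Epha2 changed by 0.25 and 0.09 and the sulfatase Sulf2 by -0.22 and -0.13, without passing.

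Both genes of RNA binding and metabolism rose in both genotypes, where 10.2% of all genes rose in WT and 17.2% in KO. Zmat3, an RNA-binding zinc finger protein that acts on splicing, went from 29.0 ± 1.67 to 43.8 ± 4.57 CPM in WT (log2 0.60 ± 0.11, adjusted p = 0.00217) and from 24.6 ± 4.31 to 34.7 ± 3.05 in KO (0.49 ± 0.12, adjusted p = 0.00456). Dcxr, a xylulose reductase, measured 12.0, 11.6, 9.18 and 10.8 CPM in WT control skin, 24.9, 24.8, 18.6 and 19.0 in WT UVB, 13.1, 11.6, 11.9 and 13.4 in KO control and 18.9, 20.8, 17.8 and 26.6 in KO UVB. All UVB libraries were above all control libraries, with log2 fold changes of 1.004 ± 0.14 (adjusted p = 0.00018) and 0.75 ± 0.14 (adjusted p = 0.00107).

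All 3 mitosis-linked genes rose in both genotypes, where 10.2% of all genes rose in WT and 17.2% in KO. Gtse1, a microtubule-associated protein of G2 and S phase that moves p53 out of the nucleus, measured 3.31, 1.98, 3.80 and 2.82 CPM in WT control skin, 8.07, 7.78, 7.08 and 8.44 in WT UVB, 3.35, 2.42, 2.13 and 2.66 in KO control and 9.70, 7.70, 8.54 and 7.29 in KO UVB (log2 1.38 ± 0.18, adjusted p = 0.00011, and 1.65 ± 0.18, adjusted p = 2.97e-05). Psrc1, a spindle microtubule protein, measured 9.25, 8.00, 9.44 and 8.42 CPM in WT control skin, 20.5, 25.5, 20.02 and 21.4 in WT UVB, 8.21, 6.70, 5.91 and 5.49 in KO control and 23.0, 23.3, 18.1 and 21.7 in KO UVB (1.31 ± 0.13, adjusted p = 1.17e-05, and 1.71 ± 0.13, adjusted p = 3.05e-06). Ckap2, a spindle-associated protein, measured 6.93, 3.91, 8.26 and 6.05 CPM in WT control skin, 15.5, 19.8, 19.9 and 21.5 in WT UVB, 8.65, 4.87, 4.42 and 6.10 in KO control and 22.7, 20.5, 16.9 and 15.1 in KO UVB (1.60 ± 0.23, adjusted p = 0.000224, and 1.65 ± 0.23, adjusted p = 0.000149). No UVB library of these 3 genes reached down to a control library.

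Cycling cells express these 3 genes, and proliferation genes rose in the same libraries. Of 16 proliferation genes, 14 rose in WT (median log2 fold change 0.99) and 16 in KO (1.30). Of all genes tested, 10.2% rose in WT and 17.2% in KO. Birc5, a chromosomal passenger protein, rose by 1.17 and 1.60, the mitotic kinase Cdk1 by 1.15 and 1.39, the S-phase cyclin Ccne2 by 0.90 and 1.07, and Mki67 by 0.88 ± 0.25 and 1.28 ± 0.25. Their summed level ranged over 263 to 407 CPM in WT control skin, 542 to 578 in WT UVB, 233 to 376 in KO control and 449 to 752 in KO UVB, and none was at 0 in any group. The part of proliferation in the results of the p53 target genes was not tested.

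**Figure D3:**
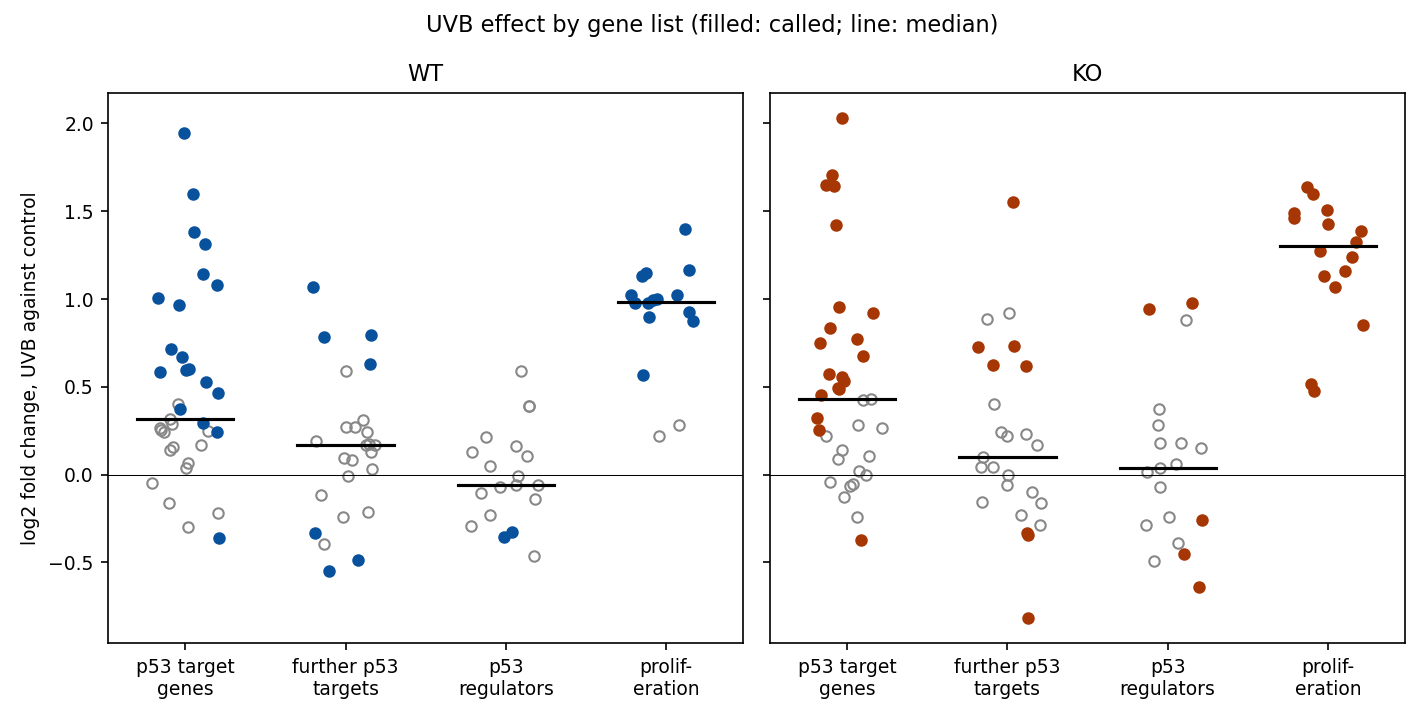
Log2 fold change after UVB (axis) of each tested gene (points) of the p53 target genes, further p53 targets, p53 regulators and proliferation genes, in WT and KO, with the list's median as a line and called genes filled. The medians are 0.32 and 0.43 for the p53 target genes and 0.17 and 0.10 for the further p53 targets. They are 0.99 and 1.30 for the proliferation genes and -0.06 and 0.04 for the p53 regulators.

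Of 19 regulators of p53, none rose and 2 (Ep300, Sirt1) fell in WT, where 10.2% of all genes rose and 8.60% fell. In KO 2 rose and 3 fell, where 17.2% of all genes rose and 15.1% fell, and the medians were -0.06 in WT and 0.04 in KO. Mdm4, the partner of MDM2 in restraining p53, fell in KO by 0.45 on the log2 scale (SE 0.09, adjusted p = 0.00219) and changed by -0.23 in WT (adjusted p = 0.0966). The acetyltransferase Crebbp fell in KO (-0.64 ± 0.16, adjusted p = 0.00757). The checkpoint kinases Chek1 and Chek2, which phosphorylate p53, rose in KO by 0.94 ± 0.24 (adjusted p = 0.00758) and 0.98 ± 0.15 (adjusted p = 0.000272), and in WT changed by 0.59 and 0.39 (adjusted p = 0.0941 and 0.0751). The phosphatase Ppm1d (0.05 and 0.18) and the p53 family member Trp63, a keratinocyte regulator (-0.14 and -0.39), did not pass in either genotype.

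A second list held 26 further genes reported as p53 targets. With 25 tested, 4 rose and 3 fell in WT (median 0.17), where 10.2% of all genes rose and 8.60% fell. In KO 5 rose and 3 fell (median 0.10), where 17.2% of all genes rose and 15.1% fell. Sfn, the epithelial 14-3-3 sigma that holds cells in G2, rose by 1.07 ± 0.25 in WT (adjusted p = 0.0081) and 1.55 ± 0.25 in KO (adjusted p = 0.000466). Tnfrsf10b, the TRAIL receptor, rose by 0.63 and 0.73, and Slc19a2, a thiamine transporter, by 0.78 and 0.62. The tetraspanin Cd82 fell by 0.49 in WT (adjusted p = 0.00874) and by 0.82 in KO (adjusted p = 0.000175). Ddb2, the sensor of UV lesions in nucleotide excision repair, changed by -0.24 in WT (adjusted p = 0.141) and fell by 0.33 in KO (adjusted p = 0.031). Gdf15, a secreted stress factor, did not pass (0.17 and 0.40). Of the tanning signals that p53 is known to induce in keratinocytes, Kitl changed by 0.13 and 0.24 (adjusted p = 0.401 and 0.0749), and Pomc had 1 to 10 reads a library and was not tested.

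Between genotypes, Tnfrsf1a and Tnfrsf1b differed in KO from WT by -0.74 ± 0.07 and -1.47 ± 0.21 on the log2 scale in control skin (adjusted p = 5.43e-05 and 0.00206) and by -0.66 ± 0.07 and -1.02 ± 0.21 in UVB skin (adjusted p = 0.000152 and 0.0315). None of the 35 genes was called between KO and WT in control skin, where 1.69% of all genes were, and none in UVB skin, where 0.856% were (edgeR). At an unadjusted p under 0.05 there were 6 in control skin (10.9% of all genes) and 3 in UVB skin (16.3%). DESeq2 called 0 in control skin (2.58% of all genes) and 0 in UVB skin (3.75%). Limma voom called 2 in control skin, where it called 3.37% of all genes. They were Psrc1 (adjusted p = 0.0468) and Sesn1 (adjusted p = 0.0346), both lower in KO. In UVB skin limma voom called 0 (6.24% of all genes). The control libraries of the genotypes did not overlap for Bbc3, Sesn1 and Ier5 (7.68% of all genes), all lower in KO, and the UVB libraries for Ei24 and Zmat3 (8.16%), both lower in KO. Of these, Zmat3 differed by -0.34 ± 0.11 (adjusted p = 0.153) and Ei24 by -0.17 (adjusted p = 0.306) in UVB skin. In control skin Sesn1 differed by -0.34 ± 0.10 (adjusted p = 0.152), Bbc3 by -0.36 ± 0.16 (adjusted p = 0.396) and Ier5 by -0.24 (adjusted p = 0.477). The 95% interval of the KO to WT ratio lay within a 2-fold change either way for all 35 genes in both conditions, and within 1.5-fold for 29 in control and 32 in UVB skin.

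**Figure D4:**
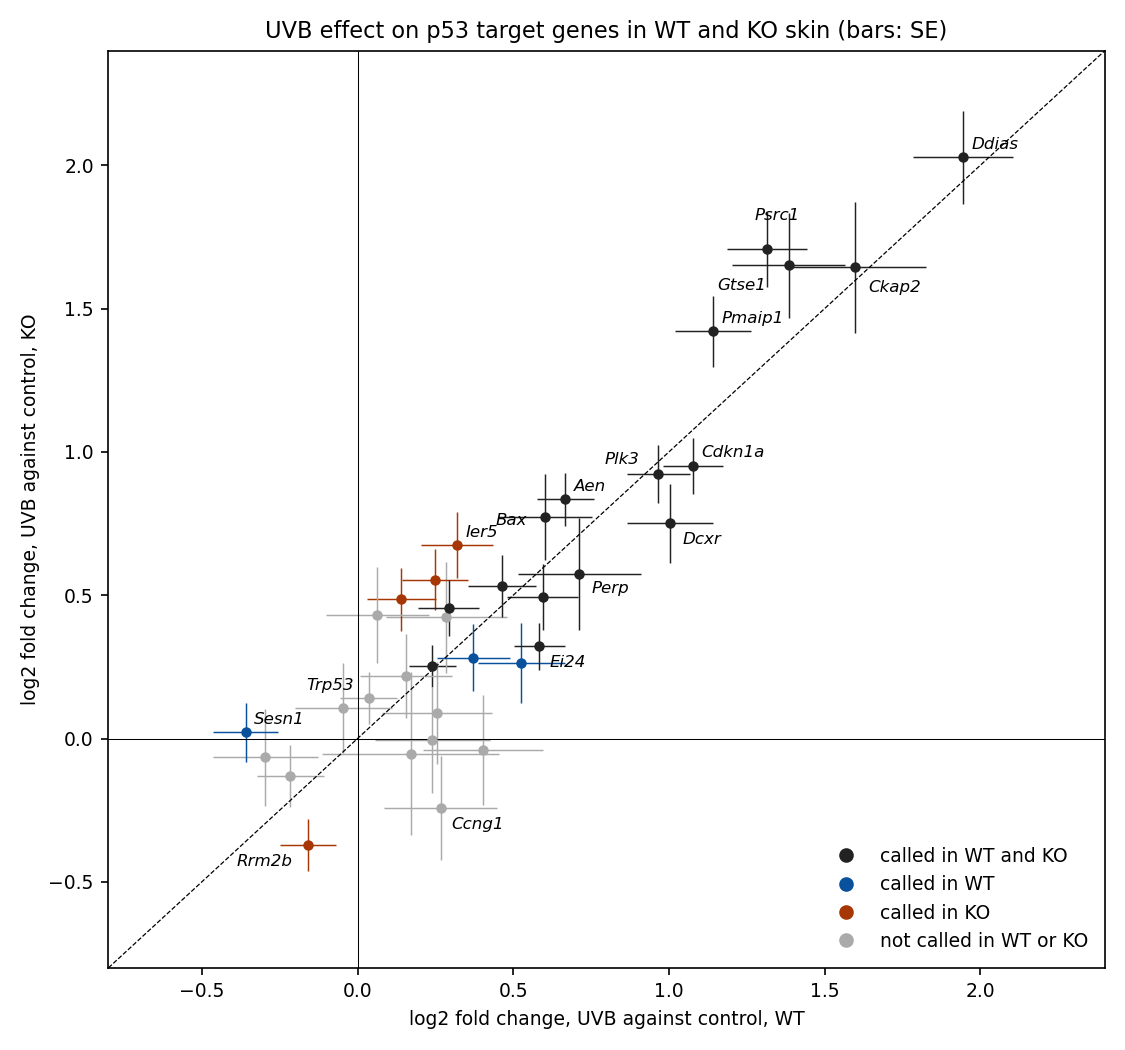
Log2 fold change after UVB in WT (horizontal axis) against that in KO (vertical axis) for the 35 p53 target genes, with SE bars and a dashed line of equal change. Ddias lies farthest out at 1.94 and 2.03, and Sesn1 (-0.36 and 0.02) and Ccng1 (0.27 and -0.24) lie off the line.

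Whether the UVB effect differed between genotypes was tested by the interaction, the log2 change after UVB in KO less the one in WT. None of the 35 genes passed (edgeR), where 0.0228% of all genes did. DESeq2 also called 0 of the 35, against 1.21% of all genes, and limma voom 0, against 2.5%. At an unadjusted p under 0.05 there were 5 (12.8% of all genes), namely Sesn1 (0.38 ± 0.15, adjusted p = 0.292), Ei24 (-0.26, adjusted p = 0.352), Polh (0.34, adjusted p = 0.369), Psrc1 (0.39 ± 0.18, adjusted p = 0.376) and Ier5 (0.36, adjusted p = 0.377). Thus the genes called in 1 genotype, Btg2, Pidd1 and Sesn1 in WT and Plk2, Polh, Ier5 and Rrm2b in KO, were not shown to differ between genotypes. For Cdkn1a the difference was -0.13 on the log2 scale with a 95% interval of -0.42 to 0.16, and for Mdm2 0.01 (-0.21 to 0.24). The interval lay within a 2-fold difference either way for 32 of 35 genes and within 1.5-fold for 14. The exceptions to 2-fold were Ccng1 (-1.05 to 0.04), Eda2r (-1.02 to 0.13) and Ddit4 (-1.08 to 0.63), and for these a 2-fold difference lay within the error of 4 libraries a group.

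**Figure D5:**
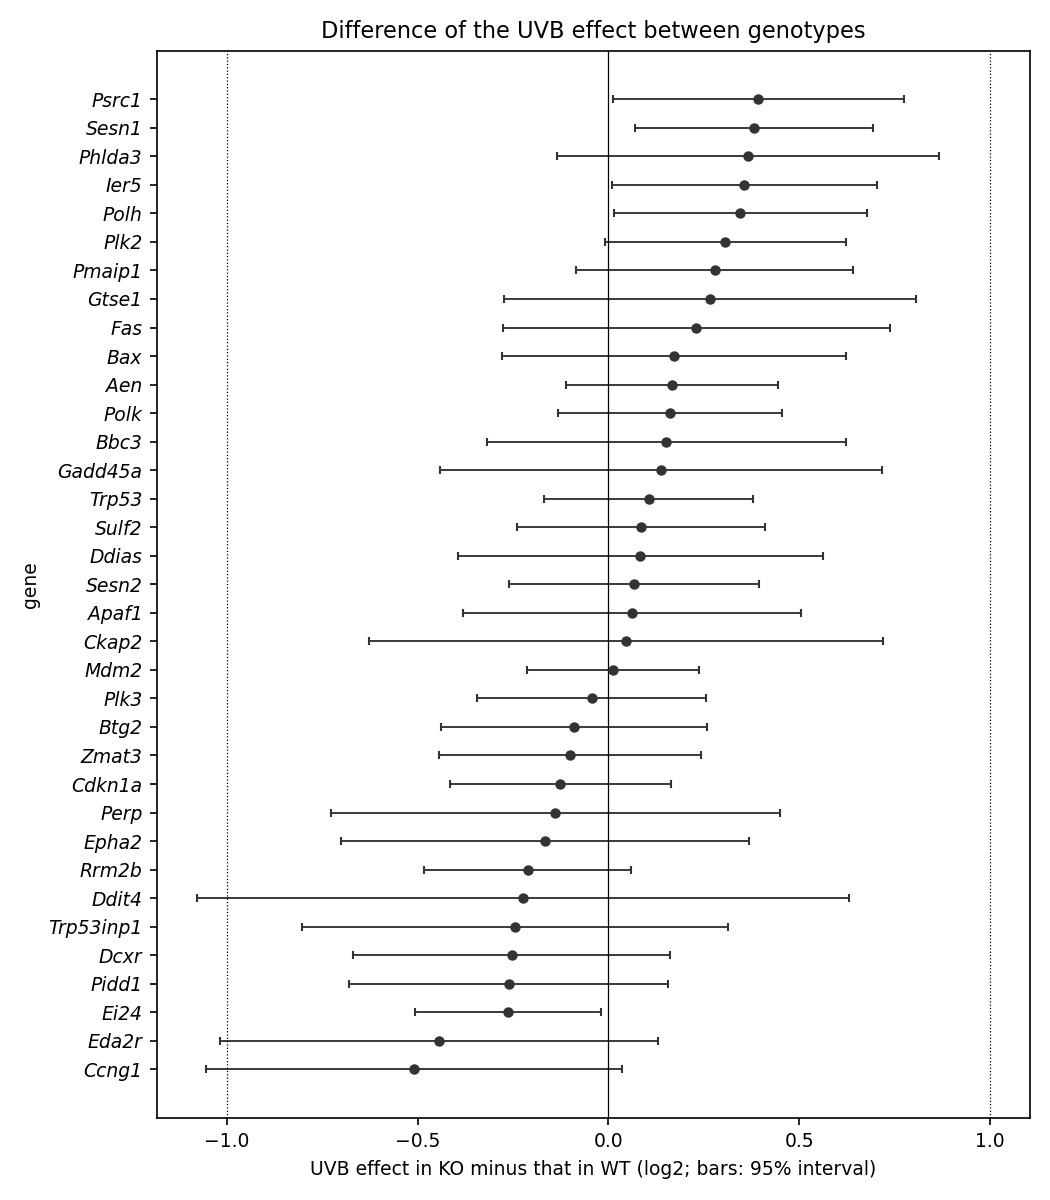
Interaction (log2 change after UVB in KO less the one in WT, horizontal axis) with its 95% interval for each of the 35 p53 target genes. The intervals of all but 5 genes cover 0, and none passed the adjusted threshold. Psrc1 has the largest positive difference (0.39), and the interval of Sesn1 runs from 0.07 to 0.69.

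Across the series, libraries held 15644375 to 23200649 reads in genes. Other tissue compartments differed between the same groups. Summed suprabasal keratinocyte markers ranged over 5793 to 7493 CPM in WT control skin, 23681 to 31182 in WT UVB, 7015 to 11518 in KO control and 15619.9 to 50516 in KO UVB. Summed basal markers ranged over 4548 to 7707, 8784 to 11322, 5021 to 8542 and 6670 to 15827 in the same groups. Of the 6 suprabasal markers tested, 6 rose in WT and 5 in KO, where 10.2% and 17.2% of all genes rose. The basal markers were mixed: of 6, 2 rose, 1 fell and 3 did not pass in each genotype (median log2 fold change 0.13 in WT and 0.12 in KO). Against the telogen label, 13 markers of the growing (anagen) hair follicle summed to 657 to 1791 CPM in WT control skin, 9.16 to 103 in WT UVB, 47.7 to 165 in KO control and 7.33 to 13.6 in KO UVB, and 13 of 13 fell after UVB in WT and 12 in KO. Of all genes tested, 8.60% fell in WT and 15.1% in KO. The neutrophil markers summed to 366 CPM in KO UVB library 3 and to 36.8 to 51.5 in the other KO UVB libraries. In KO control skin they summed to 10.6 to 31.7, in WT control to 11.8 to 16.5 and in WT UVB to 18.0 to 47.9. Of 5 neutrophil markers, 5 rose in KO and 1 in WT. Of 6 T cell markers 4 fell in each genotype, and of 4 Schwann cell markers 4 fell in each. Of 6 skeletal muscle markers, 1 fell in WT and 5 in KO. A check chosen after seeing the data left out 3 UVB libraries together. They were WT UVB library 2 (highest anagen sum of its group), KO UVB library 3 (highest neutrophil sum) and KO UVB library 4 (lowest keratinocyte sums). Then 16 of the 35 genes rose in WT and 18 in KO, where 16.7% and 30% of all genes were called in either direction. The check ended the calls of Mdm2 (adjusted p = 0.0542), Btg2 (0.0654) and Polk (0.149) in WT and of Mdm2 in KO (0.205). KO UVB library 1 had the highest keratinocyte sums, with a suprabasal sum of 50516 CPM against 29456 in the next library, and without it alone 18 rose in WT and 19 in KO. Of all genes, 20.7% in WT and 28.1% in KO were then called in either direction. The part of tissue composition in the results above was not tested.

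Several smaller calls lay near the threshold and changed when 1 library was left out. In WT, the call of Mdm2 was lost without any 1 of control libraries 1 to 4 or UVB library 2 (adjusted p 0.0568 to 0.0694), that of Btg2 without control library 2, 3 or 4 or any 1 of UVB libraries 1 to 4 (0.0522 to 0.1), and that of Sesn1 without control library 1, 2 or 4 or UVB library 1, 3 or 4 (0.0583 to 0.127). That of Perp was lost without control library 1 or 2 or UVB library 3 (0.0587 to 0.064), and that of Pidd1 without control library 2 (0.0526). Polk lost its WT call without WT control library 2, 3 or 4, WT UVB library 1, 2 or 4, KO control library 2 or 3 or KO UVB library 2 (0.0515 to 0.139). In KO, Mdm2 lost its call without control library 2 or UVB library 3 (0.051 to 0.0577), and Perp without control library 1, 2 or 3 or UVB library 1 or 2 (0.0639 to 0.127). Over all alternatives run, the log2 fold changes in WT stayed within 0.15 to 0.27 for Mdm2, 0.28 to 0.42 for Btg2, -0.46 to -0.27 for Sesn1, 0.62 to 0.82 for Perp, 0.43 to 0.62 for Pidd1 and 0.20 to 0.40 for Polk. In KO they stayed within 0.14 to 0.31 for Mdm2 and 0.38 to 0.84 for Perp. With library totals, Btg2 (adjusted p = 0.127) and Polk (0.183) in WT and Perp in KO (0.057) also lost their calls. With no filter beyond 1 read, Mdm2 (0.0967), Pidd1 (0.0511) and Polk (0.106) lost theirs in WT, and with the 2 groups of a contrast fitted alone Polk (0.0722) in WT and Mdm2 (0.0628) and Perp (0.0908) in KO. In the other direction, Ier5 passed in WT without KO control library 1 or KO UVB library 2, 3 or 4 (0.0174 to 0.045). In KO, Phlda3 passed without WT UVB library 1, KO control library 1 or KO UVB library 2 (0.0374 to 0.0469), Gadd45a without KO control library 3 or KO UVB library 4 (0.0244 to 0.0258), Btg2 without KO control library 2 (0.00182) and Apaf1 without KO UVB library 1 (0.0477).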

How the data were processed

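The deposited values are raw read counts per gene of 16 libraries, made by the authors with STAR on GRCm39, per the submitters' processing notes. Their versions and the annotation used are not stated in the sources used here. Per the labels' protocols, poly(A)-enriched directional libraries were made from total RNA. The reverse-strand counts (95.74% of stranded gene reads) were used, and the lines for unmapped (10.7 to 19.5%), no-feature (7.25 to 10.2%) and ambiguous reads (1.18 to 1.42%) stayed out of library sizes and tests. A table of the whole series with 17 value columns and no header was not used. Symbols came from a GENCODE annotation of GRCm38 by Ensembl ID (52083 of 55359 IDs, with 1.23% of reads in IDs without a symbol).

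Counts passing filterByExpr (17531 genes) were fitted with edgeR 4.0.16 in R 4.3.3 (TMM, robust quasi-likelihood) as 1 model of 4 groups with 5 contrasts, and p-values were adjusted by Benjamini-Hochberg over all genes tested. Errors of log2 fold changes are SE, and CPM errors are SD with n = 4. The common biological coefficient of variation was 0.18. The script was tested on simulated data. The alternatives were DESeq2 1.42.0, limma 3.58.1 (voom), other scalings, filters, a replicate block and leaving out each library.

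CPM in every library are given for Trp53, Cdkn1a, Mdm2 and the 10 called genes with the smallest adjusted p in either UVB contrast, and also for Perp, which was chosen after its values were seen. Each pathway list is shown by its 4 called genes with the smallest adjusted p and by Mdm4, Ppm1d, Trp63, Pomc, Kitl, Sfn, Gdf15, Ddb2 and Mki67. The 35 genes, the lists and the rules were chosen with earlier results of these data known. Promoter windows were searched for the p53 element without mismatch, with up to 1 mismatch, and in pairs with a spacer of 0 to 13 bases.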

Additional observations from a re-analysis of the deposited data

Results flagged for a closer look

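In 4 of 140 gene and group combinations, 1 library stood far from the other 3, where chance gives about 1 in 20. Each value is the gap to the nearest other library divided by the range of the group. Mdm2 had a ratio of 0.8506 in WT control, where library 3 was low at 50.7 CPM and the others were at 53.7 to 54.2. In WT UVB skin, library 2 was the high one each time: Cdkn1a had a ratio of 0.8293 (348 against 311 to 317 CPM), Ei24 0.8473 (169.6 against 146 to 149.7) and Eda2r 0.9096 (21.1 against 14.9 to 15.5).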

How the results depend on the processing

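The alternatives did not reverse any of the counts of called genes. The 18 genes called higher after UVB in WT became 15 to 20 under other tools, scalings, filters and blocks and 13 to 19 without single libraries, and the 19 in KO became 17 to 20 and 18 to 20. The share of all genes called in either direction moved as well. With no filter beyond 1 read it was 7.5% in WT and 13.8% in KO. Under limma voom, which gave 20 in WT, it was 29.1% in WT and 42.8% in KO. With 1 library left out, it was 12.8% in WT without WT control library 2 and 20.8% without KO UVB library 4. In KO it was 24.1% without KO control library 3 and 35.7% without KO UVB library 4. The 1 gene called lower in WT ranged from 0 to 1 without single libraries. The 0 genes called between KO and WT in control skin became 2 under limma voom, which called 3.37% of all genes there. Of the calls in WT, 13 of 19 held in every alternative in which the gene was tested, and in KO 18 of 20. With library totals in place of TMM the median of the 35 genes was 0.23 in WT and 0.36 in KO. A mean count of at least 100 left 34 of the 35 genes in the test.

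No pairing by replicate number was seen: 3 of 24 same-numbered pairs deviated together with a correlation over 0.1 (range -0.403 to 0.219). Of the 72 other-numbered pairs, 18 did so (range -0.217 to 0.361). No library of the 16 correlated best with its own number in each of the 3 other groups. For 4 of the 16, the single closest library of any other group had the same number. These correlations cannot exclude a batch shared by number. With the replicate number as a block, 15 genes rose in WT and 1 fell, where 15.4% of all genes were called in either direction. In KO 18 rose and 1 fell, where 29.5% of all genes were called. Between genotypes 0 of the 35 genes were called (1.37% of all genes in control skin and 0.439% in UVB skin), and 0 in the interaction (0.0399%). The block ended the calls of Mdm2, Btg2 and Polk in WT (adjusted p 0.0563, 0.0594 and 0.0558) and of Perp in KO (0.06).

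With 4 libraries a group, the 95% interval of an interaction reached 0.23 to 0.85 (log2) to either side, with a median of 0.38.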
